A study of Rattus norvegicus with 24 samples.

Results

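miR-210, a microRNA (miRNA) known as a marker of hypoxia, was followed across peripheral blood mononuclear cells (PBMC) of rats with and without arthritis. The entry named rno-miR-210 was chosen by its exact name on a rat miRNA array, and it is 1 of the 677 miRNAs measured there. It was selected on its signal over all 12 groups of the study, so its levels are given below as a description, with differences and standard errors and with no test.

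All animals were female Wistar rats, and each of the 12 groups had 2 arrays, hybridised with different blood samples. In collagen-induced arthritis (CIA), immunisation with bovine collagen in adjuvant provokes swelling of the paws. Healthy animals (NOCIA) and CIA animals were sampled before therapy. NOCIA animals, and CIA animals given mechanical stimulation by a rotated subcutaneous needle (MS), methotrexate (MTX), saline as placebo (PLA) or isoflurane as the anaesthesia control (ANE), were sampled 1 hour and 34 days into treatment. Per the study's methods, ether was the anaesthetic at blood sampling of MS, MTX and PLA animals and isoflurane that of ANE animals. ANE animals had no further therapy, neither stimulation nor peritoneal injection. ANE thus differed from MS, MTX and PLA both in the inhaled agent and in the lack of these procedures. PBMC were separated on a density gradient, which leaves a mixture of lymphocytes and monocytes with some platelets and red cells. Sampling ended the life of the animal, so no animal was measured at 2 times, and the age of the animals was not given in the sources used here.

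Cells short of oxygen stabilise the transcription factor HIF-1, and miR-210 is among the miRNAs most regularly induced by it. The miRNA represses the iron-sulphur cluster assembly proteins Iscu1 and Iscu2 and thereby lowers mitochondrial respiration. In immune cells it is also induced by activation, in T cells among others.

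The mature strand and its neighbours at the locus are printed to show which molecule the array entry stands for, with positions from RefSeq on build GRCr8. The strand now called rno-miR-210-3p is the array's rno-miR-210 and lies at chr1:205755946-205755967 on the minus strand. It is cut from the hairpin gene Mir210 at chr1:205755923-205756032, which lies within the span of a long noncoding RNA gene, LOC102553043 (chr1:205754978-205763340). The opposite arm, rno-miR-210-5p, is called rno-miR-210* on the array and lies at chr1:205755984-205756005. The plus strand of the same place holds another annotated miRNA, rno-miR-3574. Capitals in the mature sequences mark the seed, bases 2 to 8, by which a miRNA pairs with its targets.
rno-miR-210-3p: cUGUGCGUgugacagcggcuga
rno-miR-210-5p: aGCCACUGcccacagcacacug
rno-miR-3574: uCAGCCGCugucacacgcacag

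In the hairpin below, capitals mark the 5p arm (bases 28 to 49) and the 3p arm (bases 66 to 87), each of 22 bases.
rno-mir-210 hairpin: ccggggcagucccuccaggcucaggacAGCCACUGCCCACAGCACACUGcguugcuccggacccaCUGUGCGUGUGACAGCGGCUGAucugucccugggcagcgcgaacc

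The reverse complement of rno-miR-3574 matched all 22 bases of rno-miR-210-3p. Among 724 mature rat miRNAs in the table, 0 others carried the seed of rno-miR-210-3p. Bases 2 to 7 were shared with 1 other, rno-miR-147 (chr3:130176322-130176343, plus strand), which was detected on 0 of 24 arrays.
rno-miR-147: gUGUGCGGaaaugcuucugcua

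miR-210 was detected by the scanner software on 24 of 24 arrays. miR-210* and miR-3574, the opposite arm and the antisense miRNA, were each detected on 0 of 24. The array thus gave a level for 1 strand of the locus only. For miR-210*, 3 of 480 spots were well above background, and the median spot signal of an array ran from -8.05 to -0.275 intensity units after background subtraction.

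miR-210 was read by 2 probes with 10 spots each on every array, and all 480 of its spots were well above background. The software marked 15 of them as outliers. The coefficient of variation among spots of a probe ran from 2.02% to 17.1% with a median of 6.67%. The signal of probe 1 was 1.44 to 1.69 times that of probe 2, and across the 24 arrays their log2 signals had a Pearson's r of 0.999. The probes share each array's RNA and labelling, so this compares spots and not animals. The error that the software listed for the summed miR-210 signal was 7.25% to 8.74%, and 0 spots were saturated.

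**Figure D1:**
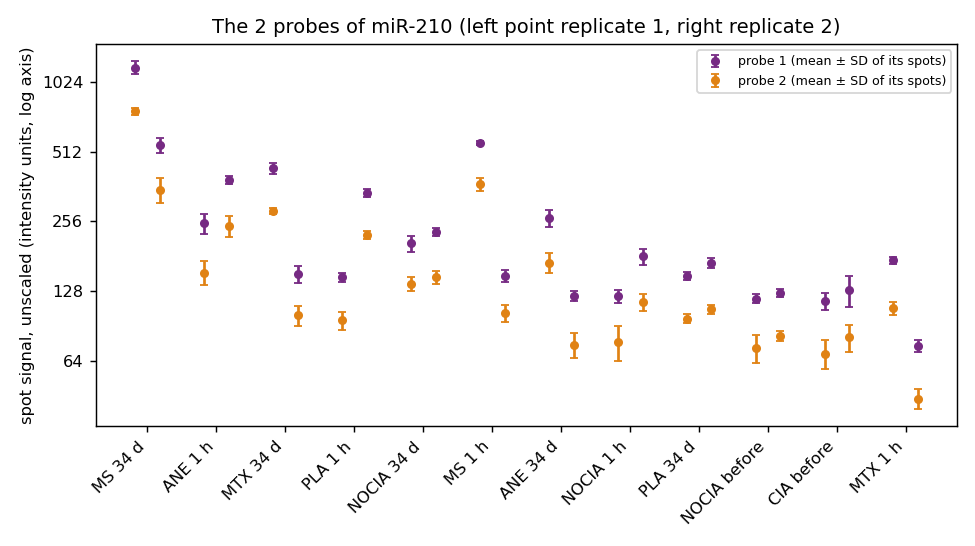
Unscaled spot signal of miR-210 (y axis, intensity units, log scale) for its 2 probes on each array (x axis, groups ordered by miR-210 level, left point replicate 1 and right point replicate 2); bars are the SD over a probe's spots. Probe 1 lies above probe 2 on all 24 arrays, and the gaps between replicate arrays of MS at 1 h or MTX at 34 days exceed the bars.

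The arrays differed in total brightness. Summed over its detected miRNAs, an array read between 137544 and 519917 intensity units, with 145 to 207 miRNAs detected. To compare arrays, signals were scaled to the same 75th percentile over the 132 miRNAs detected on all arrays, with factors from 0.452 to 1.42, and log2 was taken. All levels below are on this scaled log2 scale. The arrays lay on 3 slides of 8 arrays, each scanned at its own time, and each group lay on 1 slide, so that slide and group cannot be told apart in comparisons across slides. The PBMC markers miR-150 (lymphocytes), miR-223 (myeloid cells) and miR-142-3p (leukocytes) were detected on 24 of 24 arrays.

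The highest levels of miR-210 were those of MS at 34 days, 9.25 and 8.75. ANE at 1 hour followed with 8.17 and 8.58. The highest array outside MS at 34 days stood at 8.58, so both MS arrays lay above all 22 others. Of the 132 miRNAs detected on all arrays, 8 had these same arrays as their highest pair, miR-210 among them.

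Before therapy, NOCIA gave 7.56 and 7.71 and CIA gave 7.47 and 7.45. The CIA arrays lay just below the NOCIA arrays without overlap, and the difference of -0.18 was smaller than the SD between replicates pooled over the 12 groups (0.40). In unscaled intensity units these arrays read 136 and 147 for NOCIA and 129 and 146 for CIA, where the ranges overlap.

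At 1 hour, healthy animals gave 7.59 and 8.04. MS gave 8.18 and 7.56, MTX gave 7.70 and 6.88, and PLA gave 7.47 and 8.48. The replicates of PLA were the farthest apart of any group, 1.01 on the log2 scale, and the arrays of these 4 groups overlapped. The lowest array of the series was the second MTX array at 6.88, and the highest array was 5.18 times as bright for miR-210 as this one after scaling.

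At 34 days, healthy animals gave 7.91 and 7.89. MTX gave 8.39 and 7.59, ANE gave 8.13 and 7.52, and PLA gave 7.59 and 7.89. Apart from MS, the groups of this time overlapped with each other, except that both PLA arrays lay below both NOCIA arrays. These 2 groups lay on different slides, and their nearest arrays stood at 237 (PLA) and 238 (NOCIA) scaled intensity units. That gap was smaller than the listed errors of these arrays (7.72% and 7.53%). In unscaled intensity units the MS arrays read 1336 and 622, the MTX arrays 500 and 178 and the PLA arrays 174 and 197, and miR-210 made up 0.257% and 0.204% of the summed signal of detected miRNAs in MS against 0.0907% and 0.109% in PLA.

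**Figure D2:**
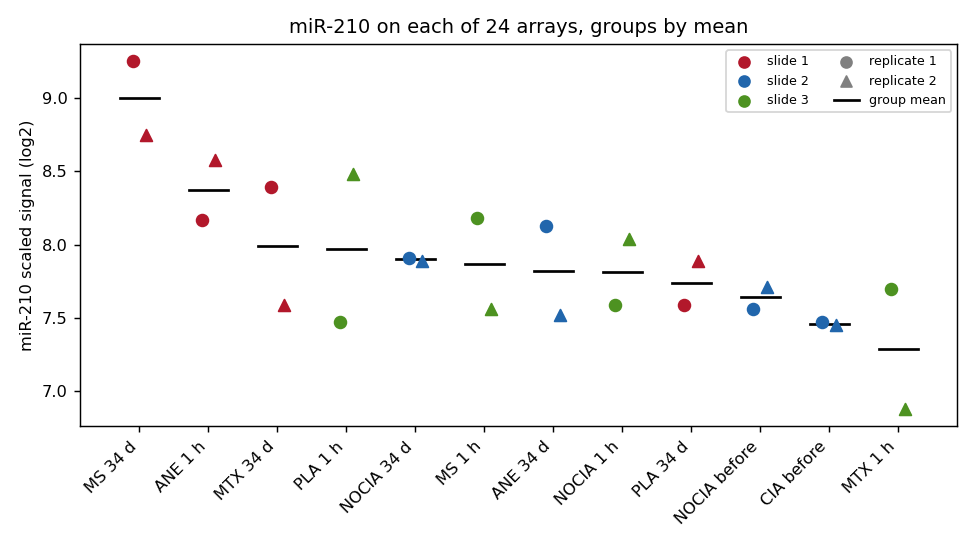
Scaled log2 signal of miR-210 (y axis) on each of the 24 arrays, grouped along the x axis by falling group mean (black bars); colours give the slide and symbols the replicate. Both arrays of MS at 34 days (9.25 and 8.75) lie above every other array, while the remaining groups overlap their neighbours in the order except NOCIA and CIA before therapy.

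In order of their means the groups were MS at 34 days (9.0 ± 0.355, SD, n = 2), ANE at 1 hour (8.37 ± 0.291), MTX at 34 days (7.99 ± 0.571), PLA at 1 hour (7.97 ± 0.713), NOCIA at 34 days (7.90 ± 0.014), MS at 1 hour (7.87 ± 0.44), ANE at 34 days (7.82 ± 0.43), NOCIA at 1 hour (7.81 ± 0.32), PLA at 34 days (7.74 ± 0.211), NOCIA before therapy (7.64 ± 0.104), CIA before therapy (7.46 ± 0.00963) and MTX at 1 hour (7.29 ± 0.581). The largest step between neighbours was from MS at 34 days to ANE at 1 hour, 0.63. The pooled SD of single arrays was 0.40, and the SE of a difference between 2 groups in the model below was 0.385. The other neighbours in the order differed by 0.38 or less and cannot be ranked against each other. The step of 0.63 is also a description and does not establish a rank. By slide, the arrays ran from 7.59 to 9.25 on slide 1 (ANE at 1 hour and MS, MTX and PLA at 34 days), from 7.45 to 8.13 on slide 2 (both groups before therapy, and NOCIA and ANE at 34 days) and from 6.88 to 8.48 on slide 3 (the remaining groups at 1 hour).

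Differences between groups were taken from a single limma model of 12 group means, in which the SE of a difference for miR-210 was 0.385. A difference was called large where it was over 1 on the log2 scale, the 2-fold change of the study's own threshold, and the arrays of both groups did not overlap. Of 19 comparisons of 2 groups, 3 met this rule for miR-210, all of them with MS at 34 days as the higher group.

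Against CIA before therapy, miR-210 was higher by 1.54 in MS at 34 days (2.90-fold), in a comparison across slides. Here 17.1% of the 210 miRNAs tested were higher by the same rule, and the difference of miR-210 was the 13th largest of them. The median of all tested miRNAs was 0.16.

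Against PLA at 34 days, within slide 1, miR-210 was higher by 1.26 in MS (2.39-fold), and 17.1% of tested miRNAs were higher by the rule. Against MTX at 34 days, also within slide 1, miR-210 was higher by 1.01 (2.01-fold), just past the threshold, where 3.81% of tested miRNAs were higher by the rule. Among the tested miRNAs these differences were the 25th largest (PLA) and the 10th largest (MTX). Without the first MS array they were 1.01 and 0.76, and the difference from CIA was 1.29. Between MTX at 34 days and MS the value without the second MTX array was 0.61 and without the first MTX array 1.41.

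The change of MS from CIA before therapy to 34 days exceeded the change of healthy animals over the same times by 1.27 (SE 0.544). Of the tested miRNAs, 9.05% were higher by over 1 in this contrast. NOCIA itself differed by 0.26 between 34 days and before therapy, within slide 2. The MS part compared slide 1 with slide 2, so a difference between slides does not cancel in this contrast.

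The other arms were closer to CIA before therapy. ANE at 1 hour was higher by 0.91 (1.88-fold), just under the rule, in a comparison across slides. There 6.67% of tested miRNAs were higher by the rule, and the difference of miR-210 was the 23rd largest. Of the arms set against CIA here, only ANE at 34 days lay on its slide. The remaining differences from CIA were 0.51 for PLA at 1 hour, 0.41 for MS at 1 hour, 0.53 for MTX at 34 days, 0.36 for ANE at 34 days, 0.28 for PLA at 34 days and -0.17 for MTX at 1 hour. Within slide 3, MTX at 1 hour was 0.68 below PLA at 1 hour, with overlapping arrays, and MS at 1 hour differed from PLA by -0.10 and from NOCIA by 0.06. All of these comparisons with CIA use the same 2 CIA arrays.

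**Figure D3:**
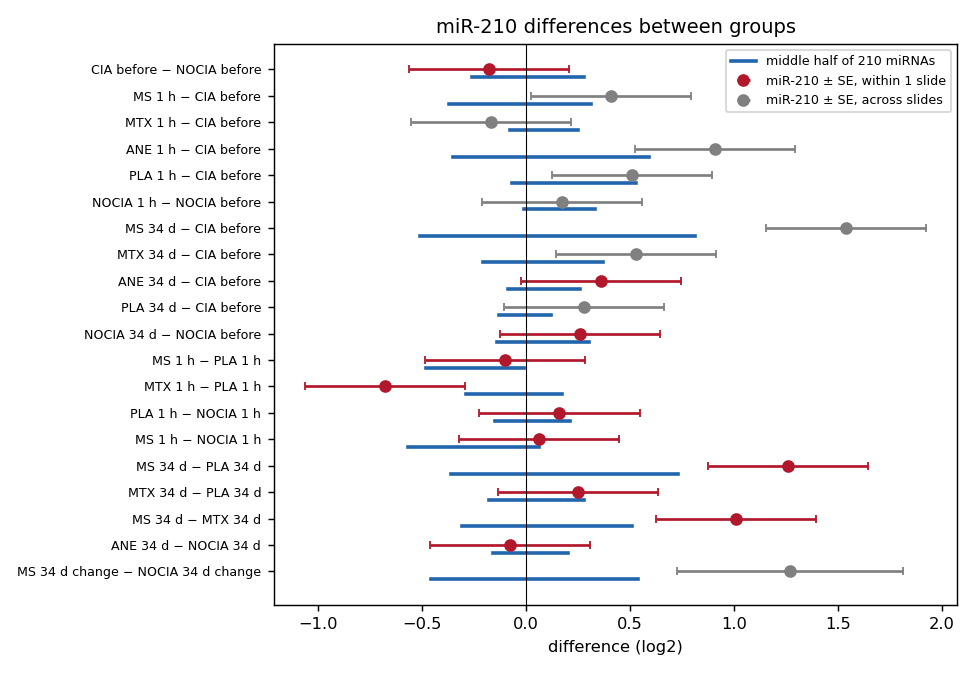
Difference in scaled log2 miR-210 signal (x axis) for each comparison (y axis), with bars of 1 SE from the limma fit; red points compare groups on 1 slide, grey points groups across slides, and the blue line under each point spans the middle 50% of the 210 tested miRNAs. The points for MS at 34 days (1.54, 1.26 and 1.01) lie beyond the blue lines, as do several smaller differences.

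miR-210 was brighter on arrays that were brighter as a whole, also after scaling. Over the 24 arrays, Pearson's r between the scaled miR-210 level and the log2 summed signal was 0.843 (Spearman's rho 0.776), where both measures come from the same array. Without both arrays of MS at 34 days r was 0.726. Of the 131 other miRNAs detected on all arrays, 8 had an r at least as high, and the median r over all 132 was 0.364.

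The same held between replicates of a group. In 10 of 12 groups the array with the larger summed signal also had the higher miR-210 level, against a median of 7 groups over the 132 miRNAs, and 22 of the 131 others did so in as many groups. The deviations of both measures from their group means had an r of 0.79 over the 24 arrays, and 19 of the 131 others had one at least as high. MS at 34 days held the brightest array (519917, against 305171 for the second MS array), while CIA before therapy gave 167322 and 163860 and PLA at 34 days 191876 and 181337.

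With the log2 summed signal as a covariate beside the group means, the miR-210 level rose by 0.96 per log2 unit of summed signal. The difference of MS at 34 days from CIA was then 0.32 (SE 0.374), from PLA at 34 days 0.20 (SE 0.347) and from MTX at 34 days 0.32 (SE 0.295). In that fit MS at 34 days was no longer the highest group, with a mean of 8.10 at the average summed signal, below NOCIA before therapy (8.22) and ANE at 1 hour (8.21). Scaling each array to the same summed signal instead left 1.46, 1.21 and 0.90 for the 3 differences. The amount of RNA labelled per array was not in the sources used here, and the part that array brightness has in the level of miR-210 was not tested.

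**Figure D4:**
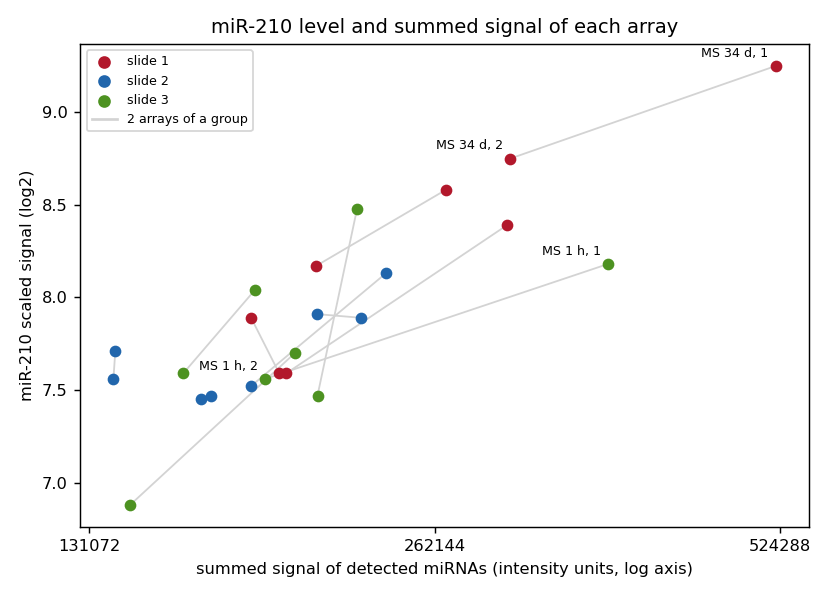
Scaled log2 miR-210 signal (y axis) against the summed signal of detected miRNAs of the same array (x axis, intensity units, log scale); colours give the slide and grey lines join the 2 arrays of a group. The points rise together (r of 0.843 over 24 arrays), and in 10 of 12 groups the line rises from the dimmer to the brighter array.

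Markers of the cell types in PBMC also differed between the arrays. In bulk cells, fewer cells of a type and less RNA per cell cannot be told apart. miR-150, a miRNA of mature lymphocytes, was 9.55 and 12.43 in MS at 34 days, between 13.38 and 13.47 in CIA before therapy and between 13.23 and 13.31 in PLA at 34 days. The summed level of all 3 lymphocyte markers (miR-150, miR-342-3p and miR-181a) was 11 to 12.87 in MS at 34 days against 13.75 to 13.87 in CIA. Low values were not confined to MS at 34 days. ANE at 1 hour (12.59 to 12.76) lay within its range, and MS at 1 hour (11.04 to 13.66), PLA at 1 hour (12.18 to 13.54) and MTX at 34 days (12.86 to 13.42) overlapped it. Across the 24 arrays the r of these markers with miR-210 was -0.777 for miR-150, -0.770 for miR-342-3p and -0.735 for miR-181a. Their r with the summed signal of the array was -0.840, -0.815 and -0.776 in the same order.

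miR-223, abundant in neutrophils, monocytes and platelets, ran the other way. It was 13.08 to 13.57 in MS at 34 days, 12.26 to 12.60 in CIA and 12.80 to 13.04 in PLA at 34 days. Its r with miR-210 was 0.826, and its r with the summed signal of the array was 0.647. The other members of the myeloid list, miR-142-3p and miR-142-5p, did not follow miR-223. miR-142-3p is named above as a marker of leukocytes, so this list is not specific to myeloid cells. miR-142-3p was 13.39 to 13.74 in MS at 34 days and 13.15 to 13.72 in CIA, with an r of -0.131, and miR-142-5p was 9.64 to 9.83 and 9.53 to 10.32, with an r of -0.543. The summed level of this list, to which its brightest members add most, was 14.30 to 14.71 in MS at 34 days and 13.97 to 14.27 in CIA. PLA at 34 days (14.32 to 14.37), MTX at 34 days (14.48 to 14.52) and ANE at 1 hour (14.45 to 14.54) lay within the range of MS. The platelet list shares miR-223 with the myeloid list. It was 13.10 to 13.59 in MS at 34 days, 12.28 to 12.62 in CIA and 12.82 to 13.04 in PLA at 34 days. ANE at 1 hour was as high as MS there, 13.33 to 13.68. Of the other platelet members, miR-126 had an r of 0.657 with miR-210 and of 0.665 with the summed signal, and miR-126* was detected on 2 arrays.

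The red cell miRNAs miR-451 and miR-144 were detected on 24 of 24 arrays, and miR-486 had no entry under that name. Their summed level was 12.19 to 13.09 in MS at 34 days, 12.07 to 14.72 in CIA and 14.11 to 14.20 in PLA at 34 days, and the r of miR-451 with miR-210 was -0.292. The liver miRNA miR-122 was detected on 9 arrays, none of them of MS at 34 days. It was also undetected in CIA before therapy, in MS and MTX at 1 hour, and in NOCIA and PLA at 34 days. The part of cell composition in the level of miR-210 was not tested.

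Other miRNAs linked to hypoxia in the literature were read beside miR-210, from a list of 21 of which 20 were on the array and 19 could be tested. The list gives no direction in which hypoxia moves each member. Counts of rises and falls below are therefore not counts of agreement with hypoxia. miR-155 had no entry under that name, and miR-199a-5p was detected on 0 arrays. For this list limma's moderated test is given, two-sided, with Benjamini-Hochberg adjustment over all 210 tested miRNAs.

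In MS at 34 days against CIA before therapy, 7 of 19 list members rose and 0 fell, beside 19.0% of all tested miRNAs called in either direction (33 up and 7 down). This comparison was across slides. Where MS at 34 days was compared within slide 1, with PLA or MTX at 34 days, 0 of the 210 tested miRNAs were called. In the comparison with CIA the list median was 0.47 against 0.16 over all tested, and 15 of 19 members were above 0 against 56.7% of all. The members with the largest rises were miR-181c, by 1.06 (SE 0.303, adjusted p = 0.0383 by limma), miR-23a by 0.83, miR-24 by 0.78, miR-195 by 0.72, and miR-27a and miR-20b-5p by 0.71 each, with adjusted p from 0.0383 to 0.0407. miR-23a, miR-24 and miR-27a are transcribed as 1 cluster, and the last of the 7, miR-26a, was higher by 0.61 (adjusted p = 0.0383 by limma). The r of these 7 with the summed signal of the array ran from 0.661 (miR-195) to 0.888 (miR-20b-5p). The median over the miRNAs detected on all arrays was 0.364. miR-20b-5p is also among the miRNAs closest to miR-210 that are named below.

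The members of the same list did not move as 1 block. miR-181a, which the lymphocyte list also holds, differed by -0.80 (adjusted p = 0.111 by limma), and miR-21 by 0.01. The count of 7 fell to 0 without the first MS array or without either CIA array and was 11 without the second MS array. It was also 0 under quantile normalisation, under scaling to the summed signal and under scaling over all miRNAs, and 15 without scaling.

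In the other comparisons 0 list members were called by limma. For CIA against NOCIA before therapy, 0.952% of all tested miRNAs were called, and the largest list differences were 0.46 for miR-192 and -0.29 for miR-24. For MTX at 34 days against CIA, 0% of all tested miRNAs were called, and at an unadjusted p under 0.05 the list had 1 member up and 2 down, with miR-192 at -0.73 and miR-181b at -0.62 the largest differences. For PLA at 34 days against CIA, 0% were called, 0 list members reached an unadjusted p under 0.05, and the largest differences were -0.56 for miR-192 and 0.34 for miR-125b-5p. For the change of MS beyond that of NOCIA, 0.476% were called, 0 list members reached an unadjusted p under 0.05, and the largest differences were 0.74 for miR-181c and -0.68 for miR-181a.

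**Figure D5:**
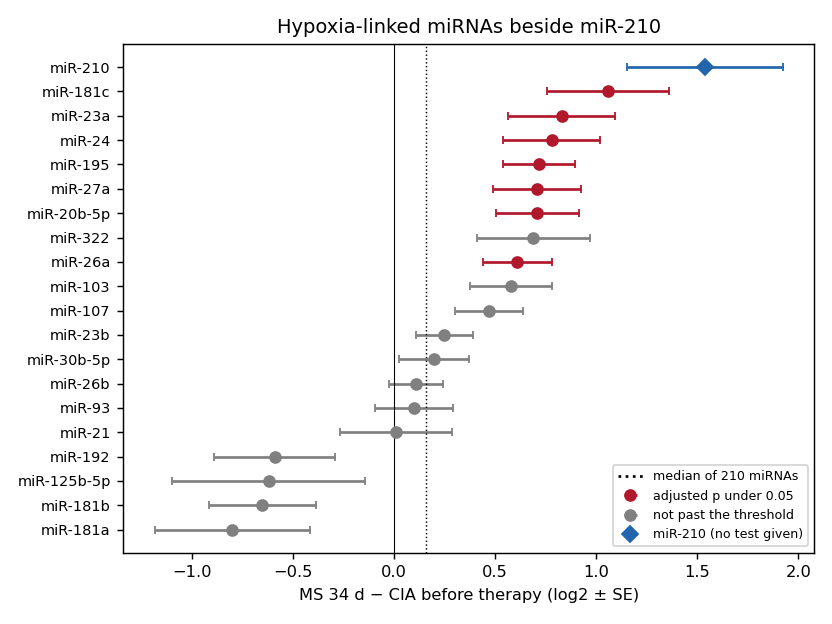
Difference between MS at 34 days and CIA before therapy (x axis, log2, with bars of 1 SE) for the 19 tested hypoxia-linked miRNAs and miR-210 (y axis); red marks an adjusted p under 0.05 and the dotted line the median of 210 miRNAs (0.16). miR-210 at 1.54 lies above all list members, the highest of which is miR-181c at 1.06.

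The miRNAs whose levels followed miR-210 most closely over the 24 arrays were miR-20a (r of 0.917), miR-181d (0.916), miR-128 (0.915), miR-20b-5p (0.908) and miR-17-5p (0.905). Their sequences are printed to show that 3 of the 5 share a seed with each other and that 0 share the seed of miR-210.
rno-miR-20a-5p: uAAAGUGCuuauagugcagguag
rno-miR-20b-5p: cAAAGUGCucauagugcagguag
rno-miR-17-5p: cAAAGUGCuuacagugcagguag
rno-miR-181d-5p: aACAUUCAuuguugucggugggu
rno-miR-128-3p: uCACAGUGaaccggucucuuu

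The first 3 sequences belong to the miR-17 family, and near-identical strands of a family can share probe signal. miR-20a was 12.81 and 12.36 in MS at 34 days and 11.75 and 11.78 in CIA before therapy. The r of these 5 miRNAs with the summed signal of the array was itself 0.776 to 0.888. Without both arrays of MS at 34 days their r with miR-210 was 0.844 to 0.867.

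The lowest r with miR-210 belonged to miR-342-5p (-0.800), miR-362* (-0.795) and miR-146a (-0.795), a miRNA that dampens NF-kB signalling. miR-146a was 7.31 and 8.42 in MS at 34 days, and 9.37 and 9.41 in CIA before therapy. Within groups, the deviations of miR-146a and miR-210 from their group means had an r of -0.821. With the summed signal of the array, the r was itself -0.814 for miR-342-5p, -0.703 for miR-362* and -0.877 for miR-146a.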

How the data were processed

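RNA of 24 PBMC samples was labelled with Cy3 and hybridised to one-colour Agilent rat miRNA arrays. The scanner files deposited by the authors hold linear, background-subtracted intensity values read with Agilent Feature Extraction 10.7.3.1 per the file headers, and they were not normalised between arrays. The submitters' processing notes also name RMA. The authors deposited a second table of log2 values, whose normalisation is not given in the sources used here and whose 24 columns each matched their own array best. It served as an alternative.

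Groups were taken from the sample titles. For NOCIA at 34 days, 1 line of the label names another time than the title. After scaling, a floor of 5.76 (2.53 on the log2 scale) was set, and miRNAs found on 3 or more arrays (210) were fitted with limma 3.58.1 in R 4.3.3, with 12 residual degrees of freedom. Correlations are descriptions over arrays. The miRNA, the lists and the rules were chosen with earlier results of these data known. Named miRNAs were miR-210, list members called (at most 6 by size, otherwise the 2 largest differences of a comparison), the 5 highest and 3 lowest correlations with miR-210, and the marker lists. miR-26a, miR-21, and miR-181a in the comparison of MS with CIA, were named after their values were seen. The fit was run on simulated data with planted changes, drawn independently for each miRNA. Brightness shared across an array was not simulated, so that run does not bear on the calls given above. Alternatives were other scalings, mean spot signal, single probes, other filters, the study's threshold, the replicate block and leaving out each array. Scaling to the summed signal, the summed signal as a covariate, leaving out both MS arrays, and leaving out arrays for the order of the groups were added after the data were seen. With 2 arrays a group, the number of arrays limits the precision.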

Additional observations from a re-analysis of the deposited data

How the results depend on the processing

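MS at 34 days had the highest and MTX at 1 hour the lowest group mean of miR-210 under the other scalings, with each probe alone, with mean spot signals and in the authors' log2 table. With the summed signal as a covariate, NOCIA before therapy was highest and MS at 1 hour lowest, and without the second MTX array at 1 hour CIA before therapy was lowest. The range between the highest and the lowest group mean, 1.71 on the log2 scale, was 2.83 without scaling, 2.15 with scaling over all miRNAs, 0.67 with the covariate, and 1.46 to 2.12 when 1 array was left out. The replicate number as a block left the difference of MS at 34 days from CIA at 1.54 (SE 0.394). Same-numbered arrays of different groups had correlations of deviations from -0.767 to 0.845 over 66 group pairs, 26 of them over 0.1, so the numbers did not pair the samples.

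Without scaling, the differences from CIA before therapy were 1.30 (MS at 1 hour), 1.38 (ANE at 1 hour), 0.94 (PLA at 1 hour), 2.73 (MS at 34 days) and 1.12 (MTX at 34 days). NOCIA at 34 days was then 0.84 above NOCIA before therapy. MS at 1 hour was 0.36 above PLA and 1.01 above NOCIA, and PLA was 0.64 above NOCIA. At 34 days, MS was 2.30 above PLA and 1.61 above MTX, MTX was 0.69 above PLA, and the change of MS beyond NOCIA was 1.89.

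With scaling over all miRNAs the differences from CIA were -0.81 (MTX at 1 hour) and -0.44 (PLA at 1 hour). NOCIA at 1 hour then differed by -0.24 from before therapy, MS at 1 hour by 0.73 from PLA and 0.55 from NOCIA, and the change of MS beyond NOCIA was 0.81. With the summed signal as a covariate, the differences from CIA were -0.23 (MS at 1 hour), 0.42 (ANE at 1 hour), 0.32 (MS at 34 days) and 0.00 (MTX at 34 days). NOCIA at 34 days differed by -0.36 from before therapy, MS at 1 hour by -0.55 from NOCIA, MS at 34 days by 0.20 from PLA and 0.32 from MTX, and the change of MS beyond NOCIA was 0.68. Beyond these constructions the cause was not tested.

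Leaving out 1 array at a time gave ranges of 1.29 to 1.79 (MS at 34 days from CIA), 1.01 to 1.51 (from PLA), 0.61 to 1.41 (from MTX) and 1.02 to 1.53 (change beyond NOCIA). From CIA the ranges were -0.58 to 0.24 (MTX at 1 hour), 0.01 to 1.01 (PLA at 1 hour), 0.12 to 0.93 (MTX at 34 days), 0.10 to 0.72 (MS at 1 hour), 0.71 to 1.12 (ANE at 1 hour), 0.06 to 0.67 (ANE at 34 days) and 0.13 to 0.43 (PLA at 34 days). Among groups at 1 hour they were -0.61 to 0.40 (MS from PLA), -1.19 to -0.18 (MTX from PLA), -0.34 to 0.66 (PLA from NOCIA) and -0.25 to 0.37 (MS from NOCIA). MTX from PLA at 34 days ran from -0.16 to 0.65.

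The 7 calls of the hypoxia list in MS at 34 days against CIA were 15 without scaling, 0 with scaling over all miRNAs, quantile normalisation, summed signal scaling, a fit of only these arrays or no filter on detection, 1 by the study's threshold, and 0 to 11 when 1 array was left out. Without the filter, 1 member was called in CIA against NOCIA and 1 in the change of MS beyond NOCIA. Of the 5 miRNAs closest to miR-210, 2 stayed among the closest 5 without scaling, with scaling over all miRNAs, in the authors' log2 table and over group means. By Spearman's rho, with summed signal scaling and without both arrays of MS at 34 days 3 stayed, and under quantile normalisation 1.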
